A study of Mus musculus with 9 samples.

Results

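Messenger RNA levels of 37 mouse interferon-stimulated effector genes were examined in BeCon cells, a mouse ovarian tumor model. The genes were chosen by symbol, as products that carry out antiviral, ubiquitin-like, ADP-ribosylating and membrane functions downstream of interferon, and each had a usable value among the 48230 genes of the deposited table. In 4 libraries the cells came from the ascites of B6 mice given YKL-05-099, an inhibitor of the salt-inducible kinases. In 1 further library BeCon cells had been grown in culture, and this library has no replicate. In the remaining 4 libraries the cells came from the ascites of B6 mice given the vehicle. All 8 ascites libraries were made from viable cells sorted as CD45-negative and MHC class I-positive, so every mouse group was gated on a surface protein that interferon can itself raise. No sort is stated for the cultured cells. All 9 libraries were poly(A)-selected with a kit that marks strand. The sources used here do not give the dose, the schedule, the age and sex of the mice or the alleles of the BeCon cells. They also leave unstated whether each library holds cells of 1 mouse or of several. The p-values therefore reflect library-to-library spread, which may be technical. Library names carry 1 prefix for YKL-05-099 and another for vehicle, and any batch behind these prefixes cannot be told apart from treatment.

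Values are FPKM, fragments scaled to transcript length and to the mapped fragments of the library. Their sum ranged over libraries between 453169 and 482851, and the number of genes at 1 FPKM or more between 11421 and 11893. The labelled tumor identity was checked against 14 ovarian tumor and mesothelial markers, of which 11 were tested for treatment, 2 higher and 5 lower after YKL-05-099. Wt1 lay at 501 to 529 FPKM after YKL-05-099, 373 FPKM in culture and 551 to 565 FPKM after vehicle, and Krt18 at 240.6 to 251.4 FPKM, 156 FPKM and 166 to 177 FPKM in the same groups. Epcam and Pax8 stayed under 1 FPKM in all 9 libraries, and Pax8 was listed at 0 in 7 of them. Krt7 lay at 19.4 to 27.1 FPKM after YKL-05-099, 0.0804 FPKM in culture and 19.6 to 37.8 FPKM after vehicle, and Muc16 was also near 0 in culture at 0.112 FPKM, against 5.77 to 7.98 FPKM after vehicle.

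Interferons bind cell-surface receptors whose associated kinases, JAK1, JAK2 and TYK2, phosphorylate STAT proteins. Phosphorylated STAT proteins join IRF9 in the complex ISGF3, which binds the interferon-stimulated response element (ISRE), whereas STAT dimers bind the gamma-activated site (GAS). The genes described here are targets of this pathway: they encode proteins that bind foreign RNA, cut or deplete nucleic acids and nucleotides, modify proteins with ISG15 or ADP-ribose, or hold viruses at membranes.

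The ISRE is printed here because it is the element through which ISGF3 reaches such genes. RefSeq promoter windows on GRCm38.p6, running from 250 bases before to 50 bases after the transcript start, matched 28 of the 37 genes by symbol. The core of a GAAA tetramer, any 2 bases and another GAAA tetramer, searched on both strands, was found in 12 of these 28 windows (42.9%), against 1079 of 27025 windows of the same length over all genes (3.99%). Stretches with the core matches in capitals are given in transcript orientation and end upstream of the transcript start. Not all are printed: Ifi203, Ifitm2 and Trim30a also hold upstream matches. They are at chr8:71537567-71537622 (minus strand) for Bst2, chr4:156200855-156200916 (minus strand) for Isg15, chr8:61928014-61928086 (plus strand) for Ddx60, chr19:34640765-34640833 (plus strand) for Ifit1, chr19:34583353-34583436 (plus strand) for Ifit3, chr19:34607749-34607832 (plus strand) for Ifit3b and chr12:26456543-26456592 (minus strand) for Rsad2.
Bst2: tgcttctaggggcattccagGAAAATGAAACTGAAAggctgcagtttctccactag
Isg15: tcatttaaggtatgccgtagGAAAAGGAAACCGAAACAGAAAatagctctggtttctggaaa
Ddx60: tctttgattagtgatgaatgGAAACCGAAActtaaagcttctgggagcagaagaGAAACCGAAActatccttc
Ifit1: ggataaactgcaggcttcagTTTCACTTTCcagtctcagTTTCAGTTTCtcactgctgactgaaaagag
Ifit3: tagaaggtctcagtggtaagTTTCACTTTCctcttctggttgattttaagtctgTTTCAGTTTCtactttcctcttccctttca
Ifit3b: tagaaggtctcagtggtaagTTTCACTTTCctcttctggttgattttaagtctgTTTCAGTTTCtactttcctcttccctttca
Rsad2: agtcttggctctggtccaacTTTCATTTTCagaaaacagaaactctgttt

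The printed stretches of Ifit3 and Ifit3b are identical, and the whole windows of these neighbouring genes share a run of 169 identical bases. Matches in Ifit1, Ifit3, Ifit3b and Rsad2 read on the opposite strand. Isg15 held 3 overlapping matches. The GAS core TTCNNNGAA was found in 5 of 28 windows (17.9%), against 9.55% of all windows, and it overlapped an ISRE match in Bst2 and Ifitm3. The full cAMP response element, the palindrome of TGAC and its reverse complement, was found in 0 of 28 windows, against 2.03% of all windows. No factor binding was measured, and a match is a description of letters only.

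**Figure D1:**
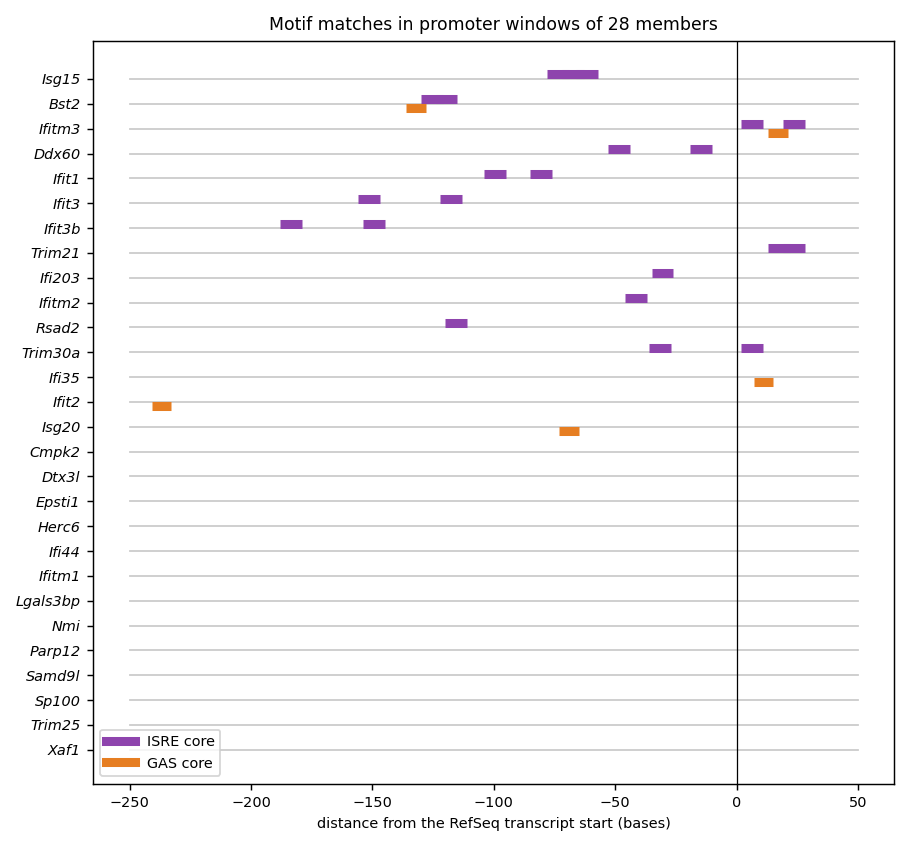
Positions of ISRE and GAS core matches in RefSeq promoter windows, 1 line per gene, on a horizontal axis of distance from the transcript start in bases. Of the 28 genes, 12 hold an ISRE core and 5 a GAS core, and in Ifitm3 and Trim21 the ISRE matches lie after the start. The Trim30a line joins windows of different transcript starts, with ISRE matches from -36 and from 2 bases.

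The treatment comparison asked how these genes differed between tumor cells of YKL-05-099 and vehicle mice. They were mostly higher after YKL-05-099: 27 of the 31 tested rose and 0 fell, at a Benjamini-Hochberg adjusted p under 0.05 from limma fitted across all genes. Of all 11788 genes tested, 28.0% rose and 15.1% fell. The count of 0 genes falling was also 0 at an unadjusted p under 0.05. On the log2(FPKM + 1) scale the largest changes were in Ifi44, Ifi27l2a, Bst2, Rtp4 and Xaf1. The mean FPKM of these genes was between 2.54 and 6.41 times that of the vehicle libraries, and that of the low gene Usp18 was 5.56 times. In bulk libraries, fewer cells of a type and less RNA per cell cannot be told apart.

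The median log2 fold change of the 31 genes was 0.58, with quartiles at 0.30 and 1.01, against 0.05 over all tested genes, with quartiles at -0.10 and 0.22. Among those that rose, 8 changed by at least 1 log2 unit, 10 by 0.5 to 1 and 9 by less than 0.5. A rise of at least 1 log2 unit was called in 1.08% of all tested genes. Every YKL-05-099 library lay above every vehicle library for 24 of the 31, against 26.5% of all tested genes. Fold changes were computed from log2(FPKM + 1) and are therefore too small for genes with low values. To be tested, a gene needed 1 FPKM or more in 4 or more ascites libraries. Usp18 and Ifit3 passed this only through their YKL-05-099 libraries and therefore had to differ, so the count is not independent of the filter for them. Ifi44 had 1 vehicle library at that level.

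**Figure D2:**
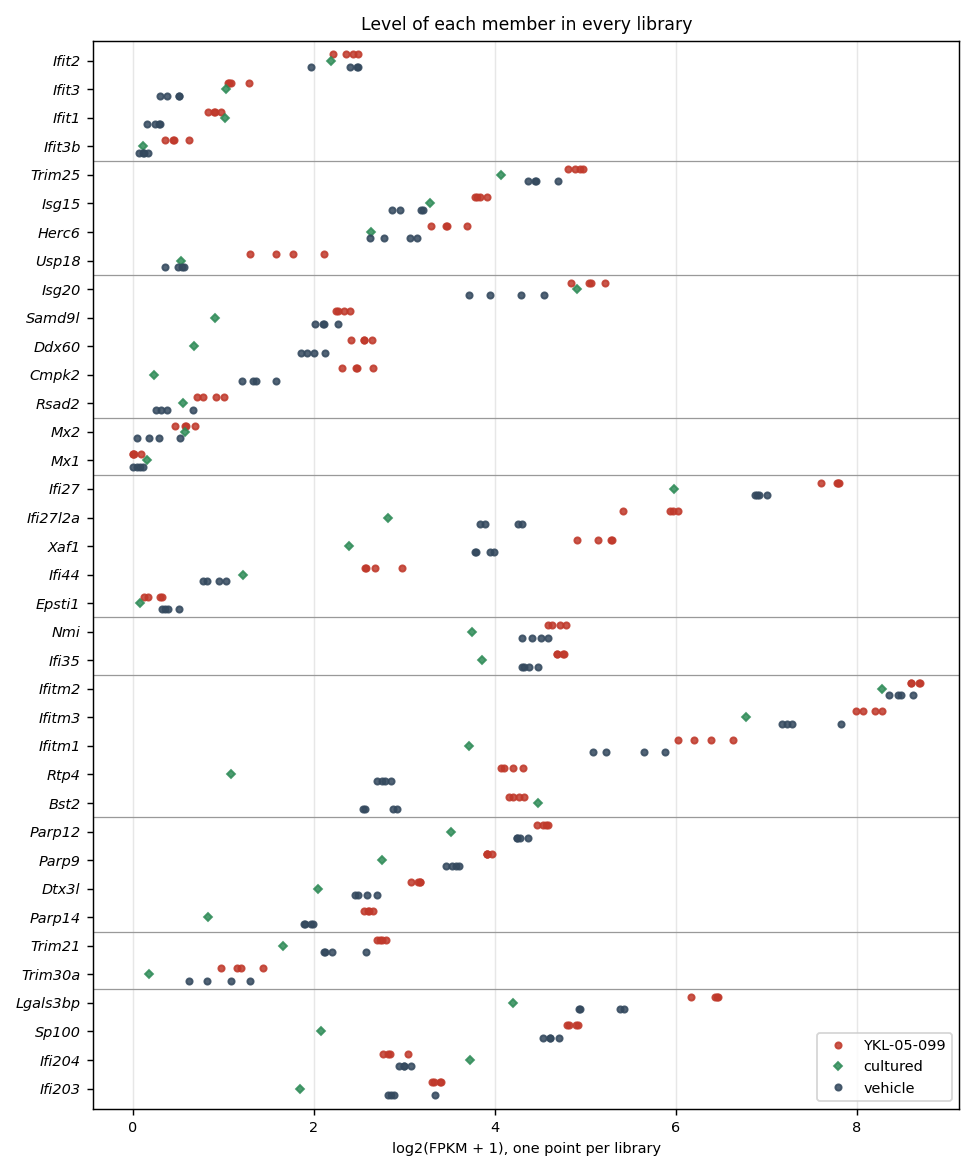
Level of each of the 37 genes in every library as log2(FPKM + 1) on the horizontal axis, grouped by role, with 1 point per library of YKL-05-099 (red), culture (green) and vehicle (blue). Red points lie right of all blue points for 27 of the 37 genes. The green point lies left of both groups for many of the 37 and right of both for Bst2, Ifi204, Ifit1 and Mx1.

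**Figure D3:**
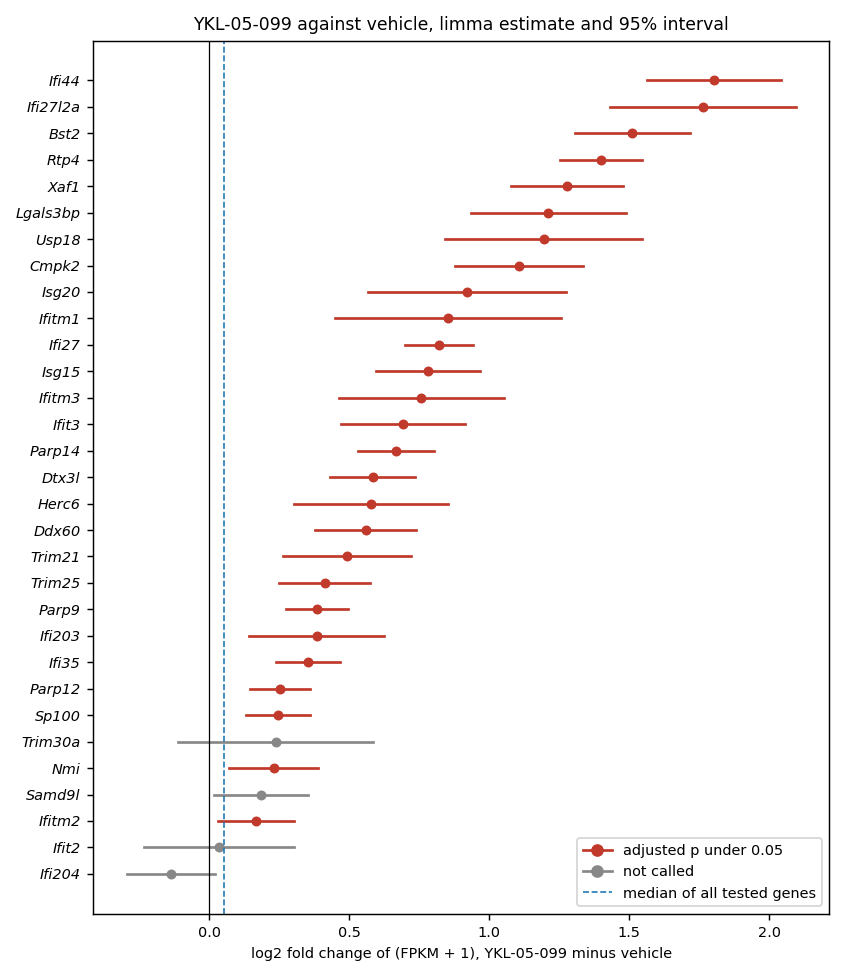
Log2 fold change of (FPKM + 1), YKL-05-099 minus vehicle, on the horizontal axis, with the limma estimate as a point and its 95% interval as a line, for the 31 genes tested. Estimates run from -0.14 for Ifi204 to 1.80 for Ifi44, and the dashed line is the median of all tested genes at 0.05.

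The IFIT proteins bind RNA whose 5′ end marks it as foreign, and their 4 genes lie within 99.3 kb on chromosome 19. Ifit3 had 1.07, 1.12, 1.10 and 1.43 FPKM in the YKL-05-099 libraries, against 0.426, 0.235, 0.304 and 0.425 FPKM in the vehicle libraries. Its log2 fold change was 0.69 ± 0.0999 SE, given as a description, since the gene entered the test only through its YKL-05-099 libraries. Ifit2 (chr19:34550694-34576419) had 4.10, 4.60, 3.64 and 4.40 FPKM after YKL-05-099, against 4.62, 4.29, 4.58 and 2.92 FPKM after vehicle. These ranges overlapped, and the log2 fold change was 0.03 with a 95% interval of -0.23 to 0.30 (limma adjusted p = 0.834). Its sign turned under 2 other scalings and when YKL-05-099 replicate 2 or vehicle replicate 4 was left out.

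Ifit1 and Ifit3b were too low for the test. Ifit1 had 0.963, 0.866, 0.776 and 0.872 FPKM after YKL-05-099, against 0.223, 0.232, 0.187 and 0.112 FPKM after vehicle, with no overlap. Fitted without the filter on low values, its log2 fold change was 0.65 (limma adjusted p = 0.000298) and that of Ifit3b 0.35 (limma adjusted p = 0.00425). Ifit3 and Ifit3b are near-identical copies, so how their reads were divided is uncertain.

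ISG15 is a ubiquitin-like protein that interferon-induced enzymes attach to other proteins. Of the 4 genes of its conjugation examined here Isg15, Herc6 and Trim25 rose, against 28.0% of all tested genes. Isg15 itself (chr4:156199424-156200818) had 13.3, 12.8, 13.0 and 14.1 FPKM after YKL-05-099, against 6.26, 8.22, 6.77 and 8.12 FPKM after vehicle. There was no overlap (log2 fold change 0.78 ± 0.0827 SE, limma adjusted p = 9.79e-05). Usp18, the protease that removes ISG15 and also dampens interferon receptor signalling, had 1.45, 2.41, 2.01 and 3.33 FPKM after YKL-05-099, against 0.464, 0.486, 0.420 and 0.285 FPKM after vehicle. Its mean was 5.56 times the vehicle mean (log2 fold change 1.19 ± 0.157 SE), again a description, since it too entered the test only through its YKL-05-099 libraries. Herc6, the main ISG15 ligase in mice, rose by 0.58 and Trim25, a ubiquitin ligase that can also act with ISG15, by 0.41 on the log2 scale (limma adjusted p = 0.00443 and 0.00159).

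Among enzymes that act on nucleotides and RNA, 3 of 4 tested rose, against 28.0% of all tested genes. Cmpk2, a mitochondrial nucleotide kinase, had 4.57, 5.29, 3.95 and 4.54 FPKM after YKL-05-099, against 1.52, 1.58, 1.30 and 2.00 FPKM after vehicle. The groups did not overlap (log2 fold change 1.11 ± 0.102 SE, limma adjusted p = 5.03e-05). Isg20, an exonuclease that degrades single-stranded RNA, had 32.3, 27.7, 36.2 and 31.9 FPKM after YKL-05-099, against 12.1, 18.6, 14.4 and 22.2 FPKM after vehicle. Its groups were apart too, although vehicle replicate 4 came near the lowest YKL-05-099 library (log2 fold change 0.92 ± 0.158 SE, limma adjusted p = 0.00147). Ddx60, a helicase linked to RNA sensing, rose by 0.56 (limma adjusted p = 0.000545).

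Samd9l, an antiviral restriction factor of the SAMD9 family, was not called. It had 4.04, 3.74, 4.26 and 3.80 FPKM after YKL-05-099, against 3.33, 3.30, 3.03 and 3.81 FPKM after vehicle. Vehicle replicate 4 lay inside the YKL-05-099 range (log2 fold change 0.18 ± 0.0747 SE, limma adjusted p = 0.0706), and the adjusted p was 0.0250 without that library and 0.0439 without the mean-variance trend. Rsad2, the neighbour of Cmpk2 on chromosome 12, encodes viperin, which makes a chain-terminating ribonucleotide. It was too low for the test, at 0.715, 0.637, 1.01 and 0.888 FPKM after YKL-05-099, against 0.244, 0.588, 0.195 and 0.302 FPKM after vehicle. These did not overlap, and without the filter its log2 fold change was 0.45 (limma adjusted p = 0.0224).

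The membrane group held both the most abundant and some of the most changed genes. All 5 rose, against 28.0% of all tested genes, Ifitm2 with the limits given below. Bst2 (chr8:71534255-71537456) encodes tetherin, which holds budding virus particles at the cell surface. It had 17.4, 19.0, 18.2 and 16.8 FPKM after YKL-05-099, against 4.90, 6.55, 6.33 and 4.85 FPKM after vehicle. The groups lay far apart (ratio of means 3.16, log2 fold change 1.51 ± 0.0925 SE, limma adjusted p = 5.22e-06). Rtp4 (chr16:23520291-23614222) encodes a receptor-transporting chaperone that also limits viral replication. It had 15.8, 17.4, 18.9 and 16.2 FPKM after YKL-05-099, against 5.74, 5.90, 6.23 and 5.48 FPKM after vehicle, again without overlap. Its adjusted p was the smallest of the 31 (log2 fold change 1.40 ± 0.0654 SE, limma adjusted p = 1.98e-06). The Rtp4 locus overlaps the predicted gene Gm45338 by 39791 bases on the same strand, and Herc6 overlaps Gm45193 by 45031 bases, so reads there may have been shared.

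The IFITM proteins block fusion of viruses with endosomal membranes, and their genes lie within 55.9 kb on chromosome 7. Ifitm1 had 72.7, 98.4, 82.6 and 63.8 FPKM after YKL-05-099, against 49.2, 36.4, 32.8 and 57.8 FPKM after vehicle. The groups did not overlap (log2 fold change 0.85 ± 0.18 SE, limma adjusted p = 0.00425). Ifitm3 averaged 281 ± 25.6 FPKM after YKL-05-099 and 168 ± 38.3 FPKM after vehicle (SD, n = 4 libraries each), a log2 fold change of 0.76 (limma adjusted p = 0.00155). Ifitm2, the most abundant of the 37 genes, averaged 399 ± 15.1 FPKM and 356 ± 27.4 FPKM in the same groups. Its ranges overlapped, and its call (log2 fold change 0.17, limma adjusted p = 0.0478) was lost without the filter, under median-of-ratios scaling, without the trend, and when any 1 library except vehicle replicate 4 was left out. The 3 genes are similar in sequence, and their separate values are uncertain. Ifitm2 also overlaps the gene Gm45717 by 1101 bases on the same strand, so reads there may have been shared.

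The group of IFI27 family genes, Ifi44, Xaf1 and Epsti1 held the 2 largest fold changes on the log2(FPKM + 1) scale. In this group 4 of 4 tested rose, against 28.0% of all tested genes. Ifi44 (chr3:151730922-151749960), named for its induction and with an incompletely understood role, had 5.38, 6.85, 4.97 and 4.92 FPKM after YKL-05-099, against 0.767, 1.04, 0.710 and 0.931 FPKM after vehicle. Every YKL-05-099 library was well above every vehicle library (ratio of means 6.41, log2 fold change 1.80 ± 0.107 SE, limma adjusted p = 4.33e-06). Ifi27l2a (chr12:103442167-103443680), a small membrane protein of the IFI27 family, had 41.7, 64.2, 60.1 and 61.3 FPKM after YKL-05-099, against 18.7, 18.2, 13.9 and 13.2 FPKM after vehicle. YKL-05-099 replicate 1 was the lowest of its group and still more than the highest vehicle library (log2 fold change 1.76 ± 0.149 SE, limma adjusted p = 3.1e-05).

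Its neighbour Ifi27 had 219.8, 221.1, 219.3 and 193.7 FPKM after YKL-05-099, against 120.0, 116, 118 and 128 FPKM after vehicle. It showed a smaller fold change at a higher level (log2 fold change 0.82 ± 0.0542 SE, limma adjusted p = 9.01e-06). Xaf1, which antagonises the apoptosis inhibitor XIAP, had 34.2, 37.9, 38.3 and 29.0 FPKM after YKL-05-099, against 12.7, 12.9, 14.4 and 14.9 FPKM after vehicle. The groups did not overlap (log2 fold change 1.28 ± 0.0897 SE, limma adjusted p = 1.19e-05). Epsti1 was under 0.5 FPKM in every library and not tested, and unfiltered its log2 fold change was -0.16 (limma adjusted p = 0.102).

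Smaller rises were measured in the PARP genes, Dtx3l, Ifi35, Nmi and Trim21. PARP9, PARP12 and PARP14 are ADP-ribosyltransferases and DTX3L is the ubiquitin ligase partner of PARP9. All 4 rose without overlap, where 28.0% of all tested genes rose and 26.5% lay wholly above vehicle. Parp14 rose by 0.67, Dtx3l by 0.58, Parp9 by 0.38 and Parp12 by 0.25 on the log2 scale (limma adjusted p between 4.85e-05 and 0.00243). Parp9 and Dtx3l overlap by 682 bases on opposite strands, and Parp9 and Gm15564 by 5854 bases, also on opposite strands. The sources used here do not say whether strand was used in counting. Parp14 overlaps Gm49730 by 1773 bases on the same strand. Ifi35 and Nmi, whose proteins bind each other, rose by 0.35 and 0.23 (limma adjusted p = 0.000549 and 0.025). Nmi's groups overlapped, and its call was lost without the filter, under median-of-ratios and quantile scaling, and without YKL-05-099 replicate 3 or 4 or vehicle replicate 1 or 3.

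Trim21, a cytosolic antibody receptor and ubiquitin ligase, rose by 0.49 without overlap (limma adjusted p = 0.00387). Trim30a, a mouse protein that restrains inflammatory signalling, had 0.974, 1.23, 1.29 and 1.72 FPKM after YKL-05-099, against 0.762, 1.13, 0.542 and 1.45 FPKM after vehicle. Its groups overlapped widely, and its 95% interval ran from -0.11 to 0.59 around a log2 fold change of 0.24 (limma adjusted p = 0.241).

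In the nuclear, PYHIN and secreted group, 3 of 4 rose, against 28.0% of all tested genes. Lgals3bp, a secreted glycoprotein that binds galectins, had 70.9, 87.6, 85.3 and 86.3 FPKM after YKL-05-099, against 41.9, 40.7, 29.4 and 29.7 FPKM after vehicle. The groups were separate (log2 fold change 1.21 ± 0.124 SE, limma adjusted p = 8.08e-05). Sp100, a component of nuclear bodies, rose by 0.25 without overlap (limma adjusted p = 0.00395). Ifi203 and Ifi204 are PYHIN genes on chromosome 1, a family that includes sensors of DNA. Ifi204 had 6.16, 5.81, 6.05 and 7.23 FPKM after YKL-05-099, against 6.68, 7.01, 6.98 and 7.44 FPKM after vehicle, and was the only one of the 31 with a negative estimate.

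Its ranges overlapped (log2 fold change -0.14, 95% interval -0.29 to 0.02, limma adjusted p = 0.14). It was called lower without YKL-05-099 replicate 4 (log2 fold change -0.20) and under quantile normalization (-0.25). Ifi203 rose by 0.38 (limma adjusted p = 0.0172), with vehicle replicate 4 inside the YKL-05-099 range, and lost its call without the filter, under quantile normalization and without vehicle replicate 2. Ifi203 overlaps the related gene Mndal by 22085 bases on the same strand, so reads of these genes may have been shared.

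The Mx family is known for dynamin-like GTPases that block virus replication, and the annotation lists Mx2 as a polymorphic pseudogene. Neither gene could be tested. Mx1 stayed under 0.1 FPKM in all 8 mouse libraries. Mx2 had 0.607, 0.379, 0.509 and 0.492 FPKM after YKL-05-099, against 0.438, 0.132, 0.222 and 0.0350 FPKM after vehicle. These overlapped, and the unfiltered log2 fold change was 0.32 (limma adjusted p = 0.0635). Over all 37 genes, tested or not, 27 lay wholly above vehicle, against 14.2% of the 24793 genes above 0 in the mouse libraries.

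Tested genes were also listed by the ISRE core in their promoter window, without a test of the difference. Over all tested genes, 28.0% rose. Of 9 with a match, 8 rose, with a median log2 fold change of 0.56 and a range of 0.17 to 1.51. The 8 include Ifit3, which entered the test only through its YKL-05-099 libraries. Of 15 without a match, 13 rose, with a median of 0.58 and a range of 0.03 to 1.80. The other 7 tested genes had no window.

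Upstream of these genes, interferon transcripts were at or near 0. Of 21 interferon ligand genes, 20 were listed at 0 in all 8 mouse libraries, and the other one, Ifne, reached at most 0.0540 FPKM. Of 13 receptor and JAK-STAT genes tested, 6 rose and 0 fell, against 28.0% and 15.1% of all tested genes. Irf9, the DNA-binding partner in ISGF3, averaged 19.99 ± 0.874 FPKM after YKL-05-099 and 9.29 ± 0.401 FPKM after vehicle (SD, n = 4 each; log2 fold change 1.03, limma adjusted p = 2.08e-06). Stat2 averaged 8.54 ± 0.93 FPKM and 3.91 ± 0.469 FPKM in the same groups (log2 fold change 0.96, limma adjusted p = 6.05e-05). Stat3, a transducer of interleukin signals, rose by 0.46 and the receptor kinase gene Tyk2 by 0.37. The receptor genes Ifnar1 and Ifnar2 had log2 fold changes of -0.01 each, neither called.

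Of 5 interferon regulatory factors tested, 3 rose and 1 fell, against 28.0% and 15.1% of all tested genes. Irf7, which drives interferon-alpha genes and is itself interferon-stimulated, averaged 15.4 ± 0.782 FPKM after YKL-05-099 and 4.58 ± 0.186 FPKM after vehicle (SD, n = 4 each; log2 fold change 1.55, limma adjusted p = 2.9e-07). Irf1 rose by 0.77 and Irf3 by 0.36, and Irf5, a factor best known from myeloid and B cells, fell by 0.56 on the log2 scale (limma adjusted p = 6.15e-05). Of 12 negative regulators, 3 rose and 1 fell, near or under the shares over all tested genes. The inhibitors Socs3 and Socs1 rose by 0.56 and 0.29 and the corepressor Tle1 by 0.21, with limma adjusted p between 0.0165 and 0.0464, and the phosphatase gene Ptpn11 fell by 0.16. All 6 ISG15 pathway genes tested were called higher, against 28.0% of all tested genes, Usp18 with the limit given above. Besides the 4 already described, these were the ISG15-conjugating enzyme gene Ube2l6, by 0.76, and the ISG15-activating enzyme gene Uba7, by 0.36.

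Markers of leukocytes, red cells and fibroblasts moved in the opposite direction. Of all tested genes 15.1% fell, and of the 11 tumor and mesothelial markers tested 5 fell and 2 rose. All 7 tested of 15 pan-leukocyte markers fell, and their summed level was 12.5 to 27.4 FPKM after YKL-05-099, 3.57 FPKM in culture and 43.2 to 84.6 FPKM after vehicle. Of 15 macrophage markers, 9 were tested and 8 fell, with sums of 20.4 to 73.8 FPKM, 10.6 FPKM and 137 to 294 FPKM in the same groups. Cd68 alone held 10.0 FPKM of the sum in culture, where 9 of the 15 were listed at 0. It lay at 9.23 to 15.8 FPKM after YKL-05-099 and 13.6 to 23.1 FPKM after vehicle. Erythroid markers fell in 5 of 5 tested, with sums of 1.45 to 92.8 FPKM, 0.188 FPKM and 244 to 1487 FPKM. B and plasma cell markers fell in 3 of 3 tested. Fibroblast markers fell in 5 of 6 tested of 8, with sums of 555 to 634 FPKM, 338 FPKM and 656 to 708 FPKM in the same groups. Among them Col1a2, a collagen gene, lay at 2.03 to 3.49 FPKM after YKL-05-099, 0.0668 FPKM in culture and 12.4 to 24.9 FPKM after vehicle. Col1a1, also a collagen gene, was highest in culture, at 32.2 FPKM. It lay at 3.51 to 4.84 FPKM after YKL-05-099 and 7.12 to 10.9 FPKM after vehicle. Of the 8 fibroblast markers, 5 reached 1 FPKM in culture. The part of fibroblasts in the result was not tested. Of 9 dendritic cell markers 2 were tested, and Bst2, also counted above, rose while Zbtb46 fell. Zbtb46 lay at 6.35 to 7.03 FPKM after YKL-05-099, 6.05 FPKM in culture and 8.32 to 9.03 FPKM after vehicle. Siglech, which marks plasmacytoid dendritic cells, was near 0 in every group. It was listed at 0 in the 4 YKL-05-099 libraries and at 0.0158 to 0.0421 FPKM after vehicle. Ptprc, which encodes CD45, lay at 0.0308 to 0.276 FPKM after YKL-05-099, at 0 in culture and at 0.346 to 0.772 FPKM after vehicle.

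The rise of the effector genes was fitted again with the mean pan-leukocyte marker level of each library as a covariate. Then 11 of the 31 were called, all higher, with 410 higher and 242 lower of all 11788 genes tested. The median log2 fold change was 0.63 with the covariate and 0.58 without it, and 30 of the 31 estimates were positive in both fits. The median SE was 0.170 with the covariate and 0.0897 without it, and marker level and treatment ran together, with no overlap between the groups. Called with the covariate were Ifi27l2a (log2 fold change 2.26), Ifi44 (2.03), Bst2 (1.72), Lgals3bp (1.62), Rtp4 (1.55), Xaf1 (1.42), Cmpk2 (1.08), Ifi27 (0.87), Isg15 (0.75), Parp14 (0.65) and Ifi35 (0.43).

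**Figure D4:**
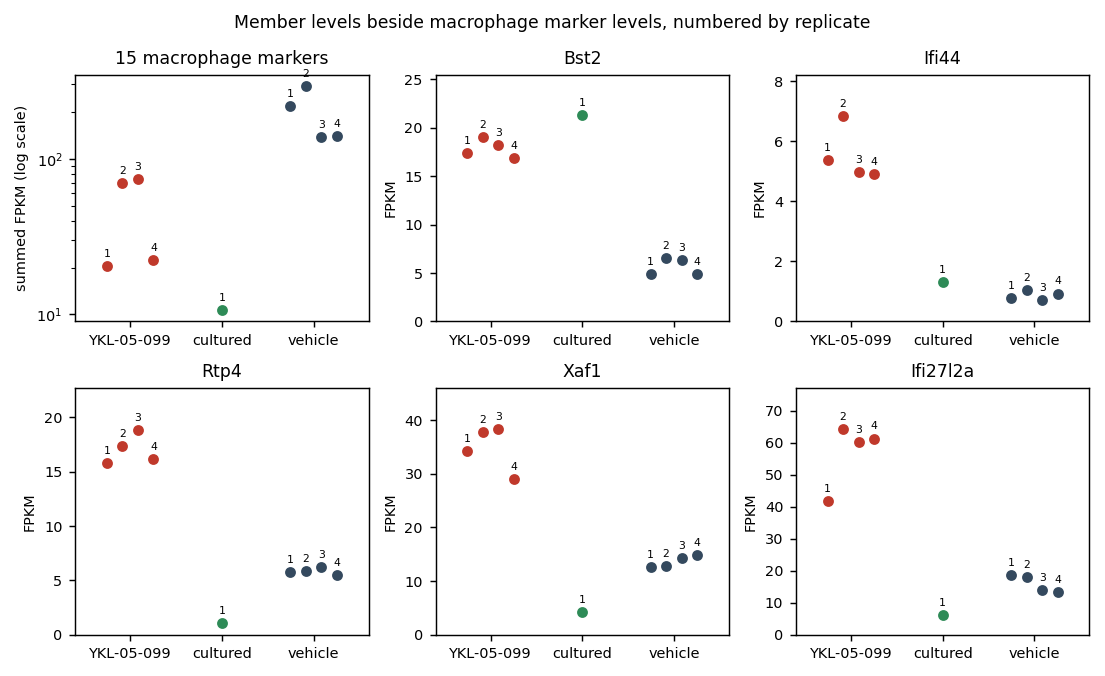
Summed FPKM of 15 macrophage markers per library (log axis) beside the FPKM of Bst2, Ifi44, Rtp4, Xaf1 and Ifi27l2a (linear axes), with each point numbered by replicate. The marker sum is 20.4 to 73.8 after YKL-05-099 and 137 to 294 after vehicle, while all 5 genes are higher after YKL-05-099. In culture the sum is 10.6, of which Cd68 alone is 10.0.

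The cultured library was set against the vehicle libraries to describe the genes outside the host. With 1 library there is no test, and a gene counted as apart when it lay outside the range of the 4 vehicle libraries and at least 1 log2 unit from their mean. Genes entered with 1 FPKM or more in 4 or more ascites libraries or in the cultured library. Ifit1 entered only through the cultured library, so its place there is not independent of the filter. Of 32 genes that entered, 10 were lower in culture by the rule of size, against 10.8% of 12296 genes, and 1 was higher, against 9.88%. The median difference on log2(FPKM + 1) was -0.65, against 0.03 over the 12296 genes. All 37 had a value above 0 in culture, and 26 reached an FPKM of 1.

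On the log2(FPKM + 1) scale the 6 genes farthest from vehicle were Sp100, Bst2, Ifitm1, Rtp4, Xaf1 and Ddx60. Sp100 had 3.22 FPKM in culture, against 23.3, 22.1, 23.3 and 25.2 FPKM after vehicle (difference -2.53 log2 units). Ifitm1 was at 12.1 FPKM in culture (-1.74), Rtp4 at 1.12 FPKM (-1.69), Xaf1 at 4.23 FPKM (-1.49) and Ddx60 at 0.600 FPKM (-1.30), each below all 4 vehicle libraries. Ifi27l2a, Samd9l, Cmpk2, Ifi203 and Parp14 made up the rest of the lower genes, and Cmpk2 was at 0.177 FPKM, a ratio of 0.111 to the vehicle mean that was lower than that of Sp100 (0.137).

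Bst2 ran the other way. It was at 21.3 FPKM in culture, above the highest YKL-05-099 library at 19.0 FPKM and the highest vehicle library at 6.55 FPKM (difference from vehicle 1.76 log2 units). The 15 pan-leukocyte markers summed to 3.57 FPKM in culture, with Arhgdib at 1.98 FPKM and Ptprc at 0. The source of the Bst2 RNA was not tested. Isg20 was at 29.0 FPKM in culture, inside the YKL-05-099 range and above all vehicle libraries. Ifi204 was at 12.3 FPKM, above all 8 mouse libraries. Ifit1, which entered only through the cultured library, was at 1.03 FPKM there, also above all 8. Its ratio to the vehicle mean was 5.45, against 3.77 for Bst2, although Ifit1 was not apart by the rule of size. Ifit3 (1.04 FPKM), Ifi44 (1.32 FPKM) and Isg15 (8.74 FPKM) were also above the vehicle range in culture and below the YKL-05-099 range.

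The treatment and culture comparisons share the vehicle libraries, so their values are set side by side only. Of the 27 genes that rose after YKL-05-099, 20 lay below all vehicle libraries in culture, 5 above all and 2 within their range. Over the 31 tested, culture was below the vehicle range for 22, against 42.0% of tested genes, and above it for 6, against 42.4%. It was below the YKL-05-099 range for 28, against 47.1% of tested genes.

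**Figure D5:**
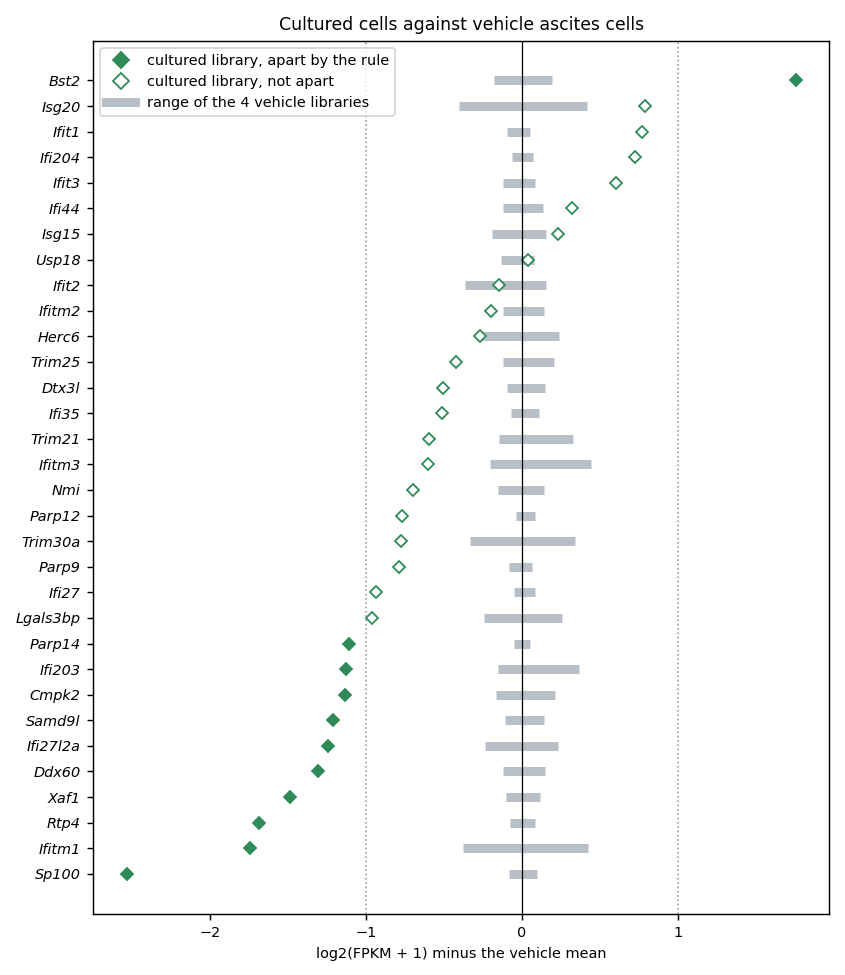
Difference of log2(FPKM + 1) in the cultured library from the vehicle mean on the horizontal axis, for the 32 genes that entered, with diamonds filled where the gene was apart and grey bars for the range of the 4 vehicle libraries. Bst2 lies at 1.76 and Sp100 at -2.53, with 10 filled diamonds below -1 and 1 above 1.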

How the data were processed

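RNA was sequenced in 4 YKL-05-099, 1 cultured and 4 vehicle libraries, grouped by sample title. The values are FPKM per gene, deposited by the authors with a status beside each, per the file headers. GRCm38 and bcl2fastq 2.19 stand in the submitters' processing notes. Aligner, quantifier and strand setting: not given in the sources used here. Of 48302 rows, 65 with a repeated gene identifier and 7 with a failed estimate were left out. FPKM are not counts, whole reads were not recovered, and the depth behind a single gene is unknown.

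Treatment was tested on log2(FPKM + 1) by limma 3.58.1 (R 4.3.3, mean-variance trend). The 11788 genes tested reached 1 FPKM in 4 or more ascites libraries. Benjamini-Hochberg adjustment covered all of them, and calls were made under 0.05. The culture comparison used a rule of size. On simulated data for the treatment comparison with 11788 genes, the fit called 98% of 100 genes with a planted change of 1 log2 unit, 37% of 100 with one of 0.3, and 10 of 11588 without any. The simulated noise was independent between genes and libraries, and only the planted genes changed. In the real data 43.2% of tested genes were called, so these shares are not error rates for them.

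The 37 genes, the gene and marker lists and the rules were chosen with earlier results of these data known. Per library were given the 12 largest called changes and every gene tested but not called. The 6 largest culture differences and up to 4 genes with the smallest p from each pathway list were named. Ifit1, Ifit3, Rsad2, Mx2, Ifnar1, Ifnar2, Uba7 and the marker genes were singled out after their values were seen. The alternatives were other pseudocounts, filters and scalings, no trend, all 9 libraries, a leukocyte covariate, a replicate block and leaving out each library. Irf8 and Usp41 were not analysed here, and a gene of the pathway lists is not reported here.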

Additional observations from a re-analysis of the deposited data

Results flagged for a closer look

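In 6 of the 74 groups of 4 libraries looked at, 1 library lay far from the other 3 of its group by Dixon's ratio, and chance alone gives about 1 in 20 groups. Ifit3 was at 1.43 FPKM in YKL-05-099 replicate 4, with the others of its group at 1.07 to 1.12 FPKM. Ifi27 was at 193.7 FPKM in the same library, with the others at 219 to 221 FPKM, and Parp9 at 14.6 FPKM, with the others at 14.0 to 14.1 FPKM. Lgals3bp was at 70.9 FPKM in YKL-05-099 replicate 1, with the others at 85.3 to 87.6 FPKM. In vehicle replicate 4, Ifitm3 was at 225 FPKM, with the others at 143 to 155.0 FPKM, and Ifi203 at 9.14 FPKM, with the others at 6.06 to 6.39 FPKM. All 6 genes kept a positive fold change without the library named.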

How the results depend on the processing

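The count of genes that rose was 27 of 31. It was 25 to 28 when each library was left out in turn and 25 under median-of-ratios scaling and quantile normalization. With TPM scaling or all 9 libraries it was 27, and with the leukocyte covariate 11. Without the filter it was 27 of 37, with Ifitm2, Nmi and Ifi203 lost and Ifit1, Ifit3b and Rsad2 gained. With a mean of at least 5 FPKM required, it was 20 of 21. The numbers in the titles do not pair the libraries: deviations of same-numbered libraries correlated at -0.02, 0.13, -0.05 and 0.17. With the replicate block 26 rose and Ifitm2 was lost. The median log2 fold change was 0.58, and 0.69 and 0.63 with pseudocounts of 0.1 and 0.5, 0.53 under median-of-ratios scaling, 0.48 under quantile normalization, 0.64 with TPM scaling, 0.63 with the covariate and 0.56 to 0.66 over left-out libraries. The count of genes that fell was 0, and 1, Ifi204, under quantile normalization, with 0 to 1 over left-out libraries. Ifit2 turned to -0.013 under median-of-ratios scaling, -0.082 under quantile normalization, -0.0033 without YKL-05-099 replicate 2 and -0.088 without vehicle replicate 4, and ranged from -0.088 to 0.087 over left-out libraries. Over all genes, 3304 rose and 1785 fell, a split of 64.9% higher. Median-of-ratios scaling gave 2503 and 2456, a split of 50.5%, and the covariate 410 and 242. In culture, with a difference of at least 2 log2 units, 1 of the 37 genes was lower and 0 higher, against 382 and 261 of all genes. At the rule of 1 log2 unit the count higher was 1, and it was 3 with a pseudocount of 0.1 and 2 with TPM scaling. The causes were not tested. FPKM of lowly expressed genes rest on few fragments, so the 6 untested genes carry the least certain values.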

Other observations

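Single libraries were not evenly placed within their groups. Over the 31 tested genes, vehicle replicate 4 was the highest vehicle library for 20 and vehicle replicate 3 the lowest for 13. YKL-05-099 replicate 1 was the lowest of its group for 14 and the highest for 0. Vehicle replicate 4 was also highest of its group for Ube2l6 at 42.6 FPKM and Socs3 at 211 FPKM, whereas its summed macrophage markers, at 141 FPKM, lay below those of vehicle replicates 1 and 2. The median coefficient of variation of the 31 genes was 8.0% over the YKL-05-099 libraries and 13.4% over the vehicle libraries, against 6.36% and 7.60% over all tested genes. The cause was not tested.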
